A study of Mus musculus with 4 samples.

Results

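The transcriptional output genes of the Hippo pathway and their angiomotin regulators, 10 genes in all, were followed from naive mouse embryonic stem cells to epiblast-like cells: Tead1, Tead2, Tead3, Tead4, Yap1, Wwtr1, Vgll4, Amot, Amotl1 and Amotl2. They were taken by symbol, through their Ensembl gene identifiers, from a table of 20296 genes, and 10 of 10 were present. RNA had been sequenced from 4 samples of the lines R1 and E14 (E14TG2a), 2 per state. The naive cells (nESC) grew in 2i/LIF, a medium with a pair of kinase inhibitors and the cytokine LIF. The epiblast-like cells (EpiLSC) had been moved to N2B27 on gelatin, to which 2 growth factors were added, activin A (20 ng/ml) along with 12 ng/ml of bFGF, and were harvested on day 3. Medium and state changed together and cannot be told apart. Each line gave 1 sample per state. The sources used here do not say whether the authors' model took the line into account. In a model without the line, the spread within a state also holds any difference between lines. In either case p-values say nothing of repeat cultures.

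TEAD proteins bind DNA but activate transcription poorly alone, and need the coactivators YAP (gene Yap1) or TAZ (gene Wwtr1). When the Hippo kinases MST and LATS are active, they phosphorylate YAP and TAZ, which then stay in the cytoplasm. Angiomotins tether YAP to cell junctions and actin and assist LATS, while VGLL4 competes with YAP for TEAD. In the early mouse embryo this circuit separates the outer trophectoderm, which needs TEAD4, from the inner cells that form the epiblast.

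The values are the authors' comparison of the states, with a mean normalized count over the 4 libraries, a log2 fold change, its standard error (SE) and an adjusted p for each gene. No column of the authors' deposited table names the direction. Positive changes were read as higher in EpiLSC, because Fgf5, Otx2 and Dnmt3b of the implanted epiblast carry positive signs and the naive genes Zfp42, Klf4 and Esrrb negative ones. A level per state was derived from that mean together with the fold change. It is in normalized counts, has no SD, and is called an implied level below. Values of single samples were not analysed here, so no statement is made on R1 against E14. In bulk RNA, fewer cells of a type and less RNA per cell cannot be told apart.

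The TEAD binding motif GGAATG, which reads CATTCC on the other strand, was looked for in promoter windows, from 250 bases before to 50 after each annotated start, because it is the sequence that TEAD proteins recognise. Windows came from RefSeq on GRCm38.p6, whereas the authors' reads were placed on mm9, so these coordinates do not apply to their alignments. Of the 10 genes 8 matched a window, and Tead1 and Tead4 did not. The motif was in a window of 5 of the 8 genes (62.5%), against 15.0% of 12079 tested genes with a window. A gene was counted if any of its windows held the motif, and Tead3 has 3 windows and Wwtr1 has 2. The contrast rests on 8 genes and was not tested. Counted by window, the motif was in 7 of 11 (63.6%) against 14.7% of all 32851 windows, although the windows of a gene overlap. The matches follow with 12 bases on each side, written 5′ to 3′ on the strand of the gene, with the motif in capitals. A pair of the Tead3 stretches overlap. Of the YAP and TAZ target genes described further on, 4 of 12 with a window held the motif (33.3%). Those of Ccn1 and Crim1, which rose, are added for comparison, while Axl, which did not pass, and Ankrd1, which was not tested, held it too and the risen Igfbp3 and Nt5e did not.
Tead3, chr17:28350970-28350999, minus strand: gacgacgagcgaGGAATGgggtgcgcggga
Tead3, chr17:28350706-28350735, minus strand: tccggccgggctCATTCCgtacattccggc
Tead3, chr17:28350697-28350726, minus strand: gctcattccgtaCATTCCggccatccccct
Tead3, chr17:28350581-28350610, minus strand: aggtaagcccggGGAATGcaactcggaggc
Yap1, chr9:8004720-8004749, minus strand: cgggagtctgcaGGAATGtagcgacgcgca
Wwtr1, chr3:57576029-57576058, minus strand: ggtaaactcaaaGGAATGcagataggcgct
Vgll4, chr6:114969268-114969297, minus strand: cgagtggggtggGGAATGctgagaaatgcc
Amotl2, chr9:102717727-102717756, plus strand: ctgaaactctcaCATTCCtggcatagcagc
Ccn1, chr3:145650071-145650100, minus strand: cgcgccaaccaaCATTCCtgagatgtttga
Crim1, chr17:78200157-78200186, plus strand: agggcgggggggGGAATGaggtaggatggg

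None of the 5 matched genes was called as changed between the states in the test given below, where 13.9% of all tested genes were called, so 0 of 5 is near the background. Tead4, which fell, had no window and could not be counted. Amot, the gene that rose, had no match in its window. That window is printed because it belongs to the one gene of the set that rose. It holds 46.0% G and C, against a median of 52.7% over all windows. A match is only a run of letters, and no binding was measured.
Amot, chrX:145487590-145487889, minus strand: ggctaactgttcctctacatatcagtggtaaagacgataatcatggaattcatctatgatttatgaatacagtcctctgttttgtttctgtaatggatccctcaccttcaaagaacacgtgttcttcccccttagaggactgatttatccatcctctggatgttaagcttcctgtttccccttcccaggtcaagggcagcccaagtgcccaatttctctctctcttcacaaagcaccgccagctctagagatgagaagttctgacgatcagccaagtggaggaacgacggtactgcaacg

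Of the 10 genes, Tead4 fell, Amot rose and 8 did not pass (Wald test of DESeq2, adjusted p under 0.05 after Benjamini-Hochberg over 16361 tested genes). All 10 were tested. The 1 rise and 1 fall stand against 7.67% of all tested genes that rose and 6.23% that fell, so the share called (20.0%, against 13.9%) is near the background at this number of genes. At an unadjusted p under 0.05 there were 3 genes, Tead4, Amot and Amotl1, where the background was 21.7%. The median log2 fold change was 0.60 for the 10 genes and 0.02 for all tested genes. Among the 8 that did not pass, 5 had positive and 3 negative values. Of the 10 genes, 7 had a mean of 1000 or more, and 1 of these was called. Among all 4949 tested genes with such a mean, 6.41% were called.

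**Figure D1:**
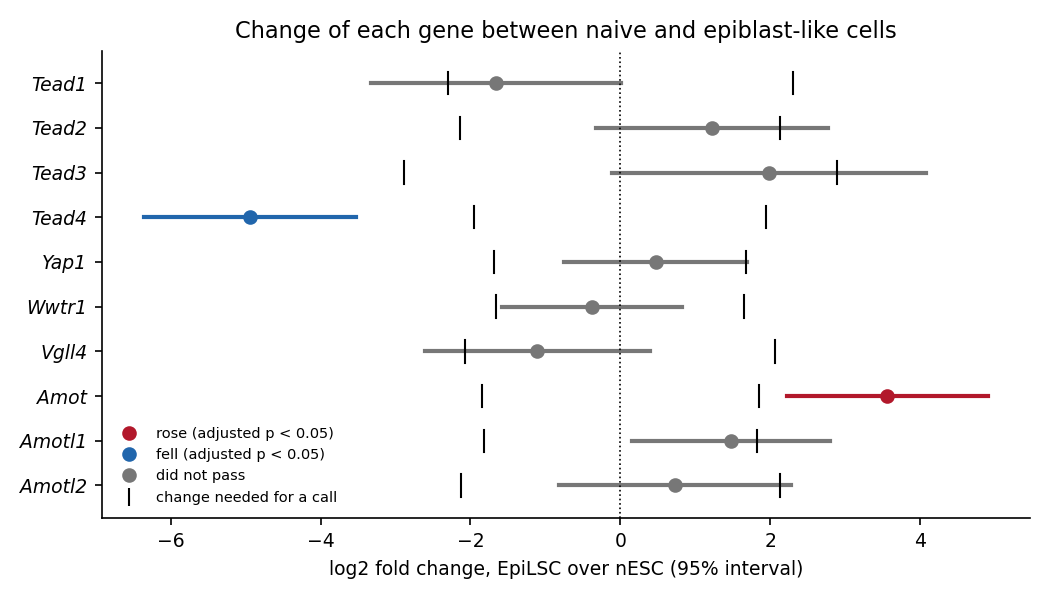
Log2 fold change of each gene (x axis, EpiLSC over nESC; points with 95% intervals) and the size of change that a call would have required at that gene's standard error (black ticks). The interval of Tead4 lies between -6.36 and -3.53 and that of Amot between 2.22 and 4.90, while 8 genes fall short of their ticks.

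Tead4, the family member required for trophectoderm, had an implied level of 1085 normalized counts in nESC and 35.3 in EpiLSC. The EpiLSC level is thus far below that of nESC. Tead4 (ENSMUSG00000030353) fell by 4.94 on the log2 scale with an SE of 0.72 (adjusted p 7.21e-10), per the authors' deposited table, a 30.7-fold fall with a 95% interval from 11.5-fold to 81.9-fold. It ranked 177 by p among the tested genes. The call held under each of the 4 alternatives tried, with adjusted p from 4.72e-10 to 3.73e-06. Of these, the Wald test against a 2-fold change was the strictest (adjusted p 3.73e-06). The others changed the unadjusted p little or not at all.

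The other three TEAD genes did not pass. Tead1, a broadly expressed member with roles in heart and muscle, had an implied level of 5170 in nESC and 1639 in EpiLSC, and a log2 change of -1.66 with an SE of 0.85 (adjusted p 0.236), per the authors' deposited table. Tead2, which is active in the early embryo, stood at 1395 in nESC and 3262 in EpiLSC. Its log2 fold change was 1.23 with an SE of 0.79 (adjusted p 0.426), per the authors' deposited table, with a 95% interval from -0.33 to 2.78. The intervals of Tead2 and Tead4 do not overlap, but the difference between them was not itself tested. Tead3, best known from placenta, had an implied level of 44.5 in nESC and 176.7 in EpiLSC. Its log2 fold change of 1.99 had the largest error of the 10 genes with an SE of 1.07 (adjusted p 0.270), per the authors' deposited table.

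To compare genes with each other, implied levels were divided by the exon length of each gene in GENCODE M21. In nESC, Tead1 (381 normalized counts per kb of exon), Tead4 (301) and Tead2 (291) stood close together and Tead3 was low (6.63). In EpiLSC, Tead2 (681 per kb) stood above Tead1 (121), Tead3 (26.3) and Tead4 (9.82). Summed over the family, the level per kb was 980 in nESC and 838 in EpiLSC. Tead4 thereby made up 30.7% of the TEAD level per kb in nESC and 1.17% in EpiLSC. Tead2 made up 29.7% and 81.3%. Moving the fold change of Tead2 alone over its 95% interval gives 15.2% to 44.0% in nESC and 73.3% to 84.4% in EpiLSC. These shares carry no replicate error, and those of genes other than Tead4 rest on changes that did not pass. Without division by length, the share of Tead4 in nESC was 14.1% and that of Tead2 in EpiLSC 63.8%, where Tead1 weighs more through its exon length (13570 bases against 3598 for Tead4).

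**Figure D2:**
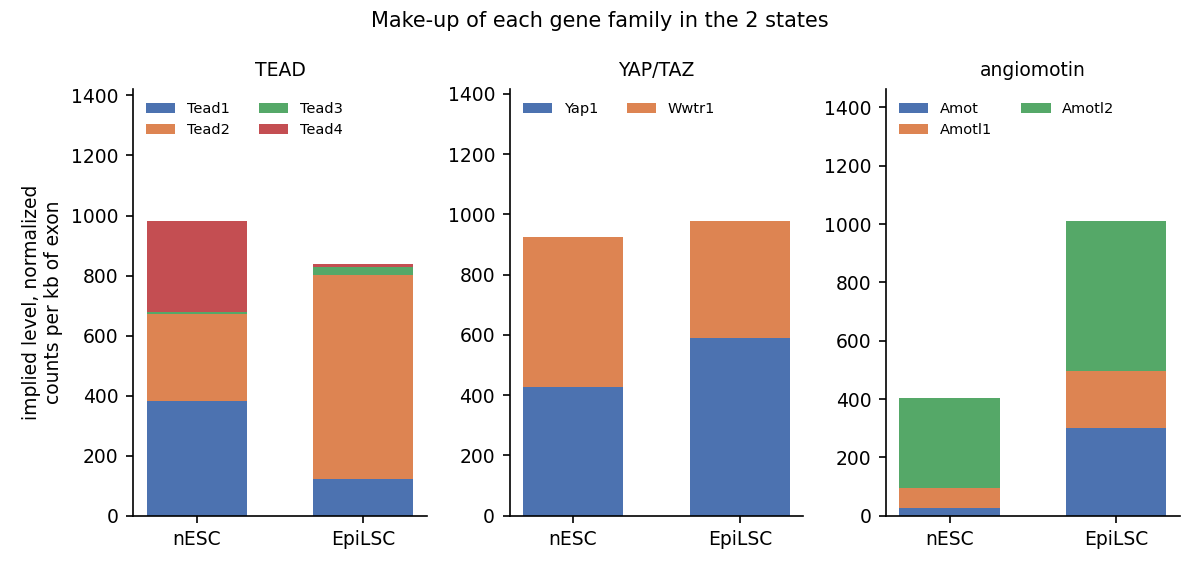
Implied levels per kb of exon (y axis, normalized counts) of the TEAD genes, of Yap1 with Wwtr1 and of the angiomotin genes, stacked by gene for nESC and EpiLSC; there are no error bars because the levels have none. Tead4 goes from 301 to 9.82 and Amot from 25.5 to 301 per kb.

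The coactivator genes did not pass. Yap1 stood at an implied 3937 in nESC against 5456 in EpiLSC, and had a log2 change of 0.47 with an SE of 0.62 (adjusted p 0.853), per the authors' deposited table. Wwtr1, which encodes TAZ, had 2394 and 1850, and a log2 change of -0.37 with an SE of 0.61 (adjusted p 0.906), per the authors' deposited table. Both 95% intervals lay within a 4-fold change either way, from -0.75 to 1.69 for Yap1 and from -1.57 to 0.83 for Wwtr1. Of the 8 genes that did not pass, these were the 2 for which this held. A call would have needed an estimated change of 3.20-fold for Yap1 and of 3.14-fold for Wwtr1, so smaller differences could have been missed. Per kb of exon, Yap1 stood at 425 in nESC and 589 in EpiLSC, and Wwtr1 at 501 and 387. Together they came to 926 and 976 per kb. Which of them was the higher in nESC depends on the length used: with the longest transcript in place of all exons, Yap1 had 745 per kb and Wwtr1 510.

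Vgll4, the TEAD cofactor that competes with YAP, did not pass. Its implied level was 202 in nESC and 93.9 in EpiLSC, and it had a log2 change of -1.11 with an SE of 0.77 (adjusted p 0.488), per the authors' deposited table. Its 95% interval ran from -2.61 to 0.40. Of the other VGLL cofactor genes, Vgll3 was in the table, at 106 and 108 in nESC and EpiLSC, and did not pass (log2 fold change 0.03 with an SE of 0.77, per the authors' deposited table, adjusted p 0.996).

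Amot, the founding angiomotin, was the gene that rose. Its implied level was 214 normalized counts in nESC and 2525 in EpiLSC, and per kb of exon it went from the lowest of the 3 angiomotin genes to between the others. Amot (ENSMUSG00000041688) rose by 3.56 on the log2 scale with an SE of 0.68 (adjusted p 6.30e-06), per the authors' deposited table. This is an 11.8-fold rise with a 95% interval from 4.65-fold to 29.9-fold, and it ranked 508 by p among the tested genes. The call held under each of the 4 alternatives, with adjusted p from 4.64e-06 to 0.00452. The strictest of them was again the Wald test against a 2-fold change (adjusted p 0.00452).

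Its paralogs had positive values and did not pass. Amotl1 had implied levels of 701 and 1953, and a log2 fold change of 1.48 with an SE of 0.68 (unadjusted p 0.0286, adjusted p 0.153), per the authors' deposited table. It was the nearest to a call of the 8 genes, with a 2.78-fold change where 3.54-fold would have been needed. Amotl2, itself a known YAP target, had 1947 and 3236, and a log2 change of 0.73 with an SE of 0.79 (adjusted p 0.774), per the authors' deposited table. Per kb of exon, Amotl2 led in both states (310 and 514), Amotl1 had 69.7 and 194, and Amot had 25.5 and 301. The share of Amot in the angiomotin level per kb was 6.30% in nESC and 29.8% in EpiLSC. The family sum was 405 per kb in nESC and 1009 in EpiLSC. Set against the sum of Yap1 and Wwtr1, this gives a ratio of levels per kb of 0.437 in nESC and 1.03 in EpiLSC (0.437 and 0.919 with the longest transcripts). The ratio has no replicate error.

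**Figure D3:**
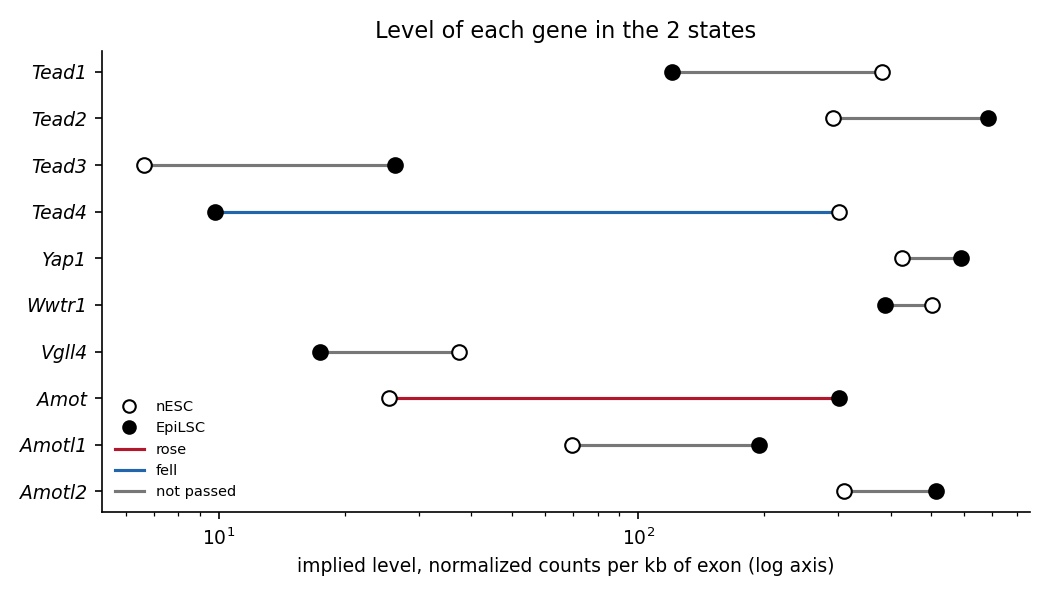
Implied level per kb of exon (x axis, log scale, normalized counts) of each gene in nESC (open circles) and EpiLSC (filled circles), with the joining line coloured by the call. Tead4 and Amot have the long lines, in opposite directions.

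Across the 10 genes, the order of levels per kb in nESC was Wwtr1, Yap1, Tead1, Amotl2, Tead4, Tead2, Amotl1, Vgll4, Amot and Tead3. In EpiLSC it was Tead2, Yap1, Amotl2, Wwtr1, Amot, Amotl1, Tead1, Tead3, Vgll4 and Tead4. Both orders hold for the union of exons as length: with the longest transcript, Yap1 (1033 per kb) stood above Tead2 (961) in EpiLSC, and in nESC Yap1 (745) and Tead1 (519) stood above Wwtr1 (510), Tead2 (411) above Tead4 (353) and Vgll4 (91.9) above Amotl1 (78.3). The spread over samples behind these levels is not in the table, so neighbours in either order are not shown to differ. Little sequence was shared with other genes: at most 1.35% of the 50-base words of any of them (Yap1) also occur in transcripts of another gene. Between members, Tead3 and Tead4 share 10 such words. Exons of Yap1 overlap the noncoding gene Gm20416 on the opposite strand by 116 bases and those of Tead2 overlap Cd37 by 13 bases.

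**Figure D4:**
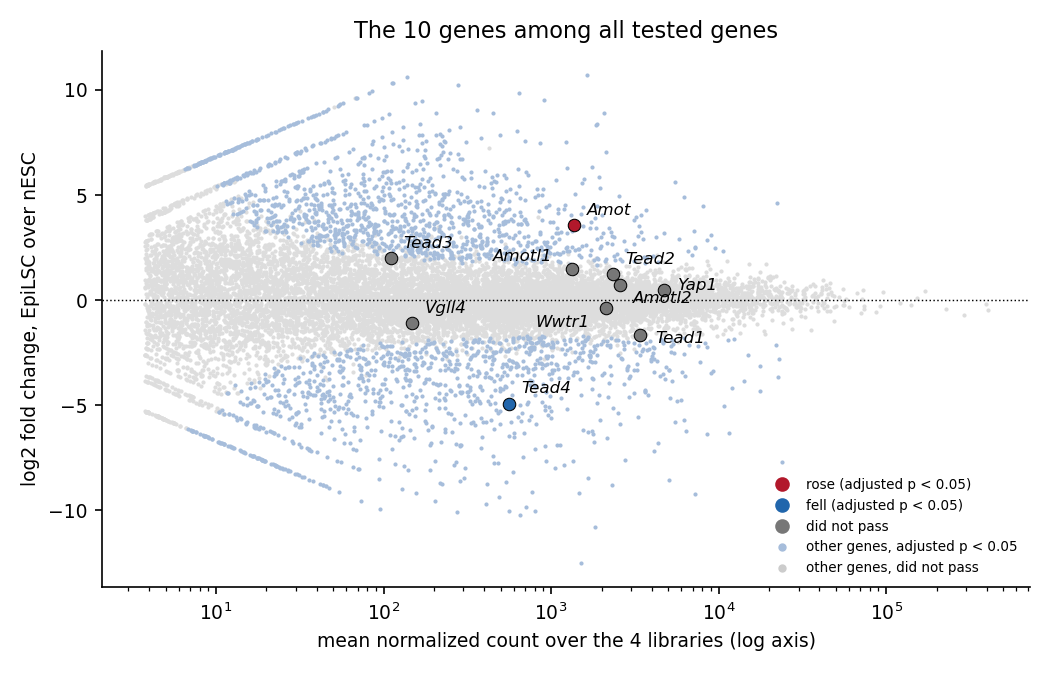
Mean normalized count (x axis, log scale) against log2 fold change (y axis) for 16361 tested genes, with the 10 genes as large points. Amot and Tead4 sit among the called genes of similar abundance, and Tead3 and Vgll4 have the lowest means of the set, 111 and 148.

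The kinases and scaffolds upstream of YAP and TAZ were called at a share near the background. Of 23 genes, all tested, 3 rose and 1 fell (17.4% called, against 13.9% of tested genes), with a median log2 fold change of 0.28. The smallest log2 change called in any tested gene was 1.68 in size, so smaller changes in this list could have been missed. The core kinase genes Stk3, Stk4, Lats1 and Lats2 did not pass. Ptpn14, a phosphatase that binds YAP, rose by 2.92 with an SE of 0.68 (adjusted p 0.000353), per the authors' deposited table, from an implied 437 to 3311. The giant cadherin genes Fat4 and its ligand Dchs1 rose from implied levels under 3 normalized counts, to 61.6 and 67.2, so the size of their folds rests on few reads. Their log2 fold changes were 8.47 and 4.86, with SEs of 1.78 and 1.24, per the authors' deposited table. Stk38, a kinase related to LATS, fell by 2.12 with an SE of 0.62 (adjusted p 0.00735), per the authors' deposited table, from an implied 10767 to 2472. Ptpn14 and Stk38 lost their calls when tested against a 2-fold change.

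The genes known as targets of YAP and TAZ were called at a higher share than all tested genes, though most did not pass. That difference in share was not tested. Of 19 fixed targets 18 were in the table and 15 were tested, of which 5 rose, 1 fell and the rest did not pass (40.0% called, against 13.9% of tested genes). The summed implied level of the list was 13571 in nESC and 8675 in EpiLSC, with Myof the main part of the nESC sum. Without Myof, the sum would be higher in EpiLSC than in nESC. The median log2 fold change of the tested targets was 0.92, against 0.02 for all tested genes. Ccn1, a matrix-associated signalling protein and classical YAP target, rose by 5.42 with an SE of 0.98 (adjusted p 1.10e-06), per the authors' deposited table, from an implied 29.4 to 1261. Igfbp3, which binds insulin-like growth factors, rose by 3.08 (SE 0.67) and Fjx1, a homolog of the fly gene four-jointed, by 3.44 (SE 0.77) in the authors' deposited table. The other two rises were Nt5e, an adenosine-producing surface enzyme (2.78, SE 0.70), and Crim1, a membrane protein that binds BMPs (2.16, SE 0.76), in the authors' deposited table. They were named after their values were seen, and both lost their calls against a 2-fold change. Myof, a membrane repair protein, fell by 4.54 with an SE of 0.71 (adjusted p 1.13e-08), per the authors' deposited table, from an implied 7252 to 311. Ccn2, the usual partner of Ccn1 as a readout and also named after its values were seen, did not pass (1.62 with an SE of 0.73, per the authors' deposited table, adjusted p 0.144). Ankrd1, Ccdc80 and Rbms3 were too scarce to be tested.

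Junction proteins that bind or neighbour angiomotins had 3 rises and no fall among 11 tested genes (27.3% called, against 13.9% of tested genes, of which 7.67% rose and 6.23% fell). Their median log2 fold change was 0.71, against 0.02 for all tested genes. In the Wald test of DESeq2, 4 of the 11 had an unadjusted p under 0.05, against 21.7% of tested genes. One of these, Arhgap17, had a negative value and did not pass (log2 fold change -1.89 with an SE of 0.84, adjusted p 0.138, per the authors' deposited table). It was named after its values were seen. Mpdz and Patj, multi-PDZ scaffolds of tight junctions, rose by 4.52 (SE 0.64, adjusted p 1.59e-10) and 3.27 with an SE of 0.67 (adjusted p 2.55e-05), per the authors' deposited table. Mpdz went from an implied 102 to 2334 and Patj from 251 to 2419. Crb3, a Crumbs polarity protein, rose by 3.02 with an SE of 0.93 (adjusted p 0.0117), per the authors' deposited table, and lost its call against a 2-fold change. The genes for enzymes that control angiomotin turnover (tankyrases, Rnf146, ligases of the NEDD4 family and the deubiquitinase Usp9x) had 0 calls among 8, and in the Wald test of DESeq2 0 of them had an unadjusted p under 0.05. Over all tested genes these shares were 13.9% and 21.7%, so 0 of 8 is near the background at this number of genes. The smallest p among them was that of Usp9x, with an implied 65292 in nESC and 32645 in EpiLSC (SE of the log2 change 0.69, adjusted p 0.485, per the authors' deposited table).

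**Figure D5:**
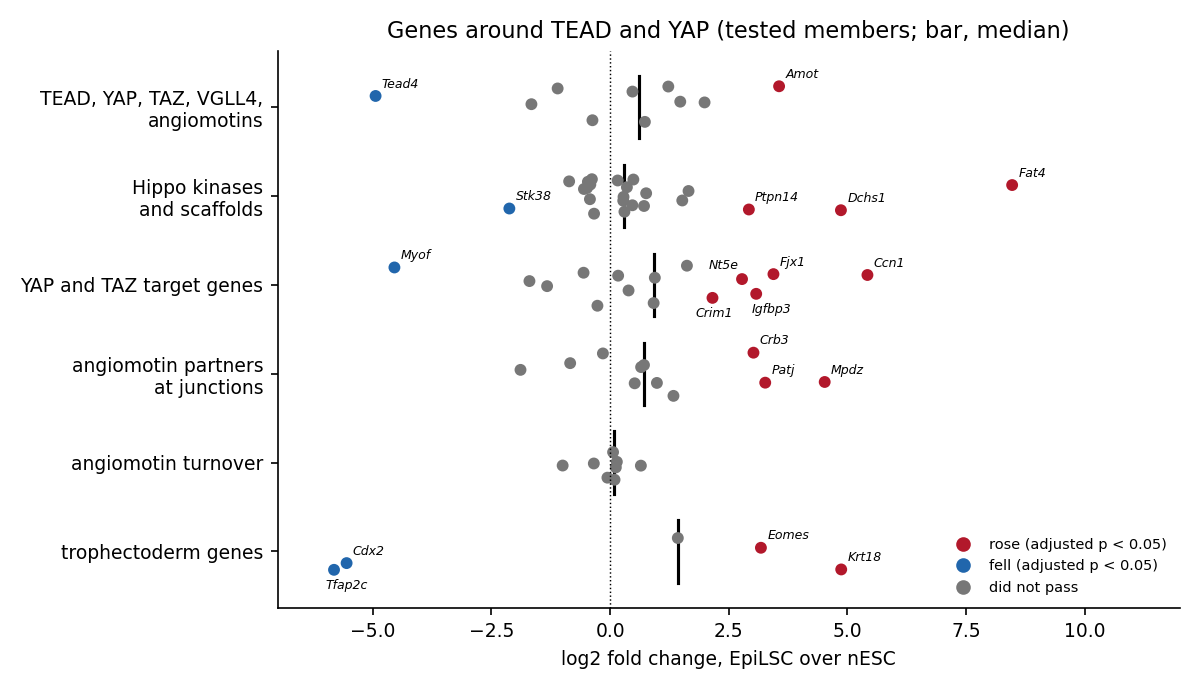
Log2 fold change (x axis, EpiLSC over nESC) of every tested gene in the 10-gene set and in 5 lists around it, with the list median as a bar and called genes named; vertical scatter within a list has no meaning. The medians run from 0.08 for angiomotin turnover to 1.43 for the trophectoderm genes.

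The trophectoderm genes, some of which act downstream of TEAD4 in the embryo, did not follow one direction. Of 8 genes 5 were tested, of which 2 rose and 2 fell (80.0% called, against 13.9% of tested genes, of which 7.67% rose and 6.23% fell). Tfap2c fell by 5.82 (SE 0.77), per the authors' deposited table, from an implied 671 to 11.9. Cdx2 fell by 5.55 (SE 1.42), per the authors' deposited table, from an implied 84.5 to under 3. The keratin gene Krt18 rose by 4.87 (SE 1.06) and Eomes, which also marks the primitive streak, by 3.18 (SE 0.90) in the authors' deposited table, and Eomes lost its call against a 2-fold change. Gata3, Elf5 and Hand1 had implied levels under 3 in both states and were not tested.

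Markers of cell types that the cultures might hold were set beside these changes. The naive markers fell in 5 of 5 and the epiblast markers rose in 4 of 4, though 3 of each had set the direction. The fibroblast list had 2 of 5 rises, Thy1 and Dcn, against 7.67% of tested genes that rose. Its summed implied level was 87.5 in nESC and 262 in EpiLSC. Pdgfrb, which did not pass, carried 73.9 of the nESC sum and stood at 31.2 in EpiLSC, while Thy1 went from 5.83 to 141 and Dcn from under 3 to 52.6. The collagen gene Col1a1 stood at 3.09 in nESC and 9.04 in EpiLSC, and Col1a2 at 4.24 and 27.4 (per the authors' deposited table, Wald test of DESeq2, unadjusted p 0.0277 and adjusted p 0.149). The primitive endoderm list had no call among 3 tested genes and summed to 91.2 and 47.2. In the Wald test of DESeq2, 1 of these genes, Pdgfra, had an unadjusted p under 0.05. Over all tested genes 13.9% were called and 21.7% had an unadjusted p under 0.05. No call among 3 genes is thus near the background at this number of genes. The trophectoderm marker list summed to 648 and 4012, and its genes did not share a direction. Among 4 tested genes 2 rose and 1 fell (75.0% called, against 13.9% of tested genes). Eomes (212 in nESC and 1917 in EpiLSC), Krt18 (43.4 and 1269) and Krt8 (306 and 821, did not pass) carried most of the sums. Cdx2 fell from 84.5 to under 3. No marker of these lists had a mean of 0, but Elf5, Gata3 and Sox7 were under 3 in both states. The part of such cells in the changes of Tead4 and Amot was not tested.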

How the data were processed

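Per the labels, strand-specific libraries were made from total RNA of 4 samples after removal of ribosomal RNA. TopHat2, HTSeq and DESeq2 1.8.2 and the build mm9 are named in the submitters' processing notes. The sources used here do not give the annotation or the strand setting of the counting. The deposited mean normalized count is a signal, counts that the authors scaled by size factors and averaged over libraries. The authors' log2 fold changes and standard errors come from their DESeq2 model, per the file headers. The deposited Wald score equals their quotient (largest gap 5.86e-14), the deposited p-value is its two-sided normal p-value, and the adjusted p is its Benjamini-Hochberg adjustment over 16361 genes. The other 3935 genes have a mean of at most 3.74 and were not counted as tested. Depth per sample is unknown: the means sum to 27888553. Precision is that of the standard errors, with a median of 0.79 and a minimum of 0.61 over tested genes.

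Gene names were found for 20167 of 20296 identifiers in GENCODE M21, matched without the version. For the implied levels, 2 times the mean was divided between the states in the ratio that the fold change gives, which weights the 4 libraries equally. The 95% intervals are normal. Exon lengths are the union of exons. Ranges of a share move that gene's fold change over its interval and keep other genes fixed. The size of change needed for a call is the smallest called Wald score (2.70) times the standard error. New p-values of single genes were computed only for the alternatives against a 2-fold change and with centred fold changes, from the deposited values. No list was given a test of its own. Simulated data, with normal noise drawn from the deposited standard errors, checked only the code of the Wald tests and of the adjustment. They cannot show whether those standard errors are right, and levels, shares and motif matches were not simulated. Python 3.11.15, pandas 2.3.3 and scipy 1.17.1 were used.

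The 10 genes and the lists were chosen with earlier results of these data known. All 10 genes are described. In each list, up to 3 called genes per direction with the smallest p were named, or the gene with the smallest p where none was called, and others are marked in the text.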

Additional observations from a re-analysis of the deposited data

How the results depend on the processing

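The calls of Tead4 and Amot and the 8 genes without a call kept their side of the threshold and their sign when p-values were adjusted over all genes with no filter, over genes with a mean of 100 or more, when tested against a 2-fold change, and when fold changes were centred on the median of genes whose mean was at least 1000 (a shift of 0.0039). Against a 2-fold change, 0 Hippo kinase and scaffold genes fell (Stk38 lost), 3 YAP and TAZ targets rose (Crim1 and Nt5e lost) and 1 trophectoderm gene rose (Eomes lost), and over all genes 628 rose and 502 fell, against 1255 and 1019. With a mean of 100 or more, 1 Hippo gene rose and 1 trophectoderm gene fell, because Fat4, Dchs1 and Cdx2 are below that mean and were not tested, and over all genes 636 rose and 615 fell. With the longest transcript as length, the share of Tead4 in the TEAD level in nESC was 27.2%, and without length 14.1%. The share of Tead2 in EpiLSC was 63.8% without length. The share of Yap1 in the sum of Yap1 and Wwtr1 went from 45.9% to 59.4% in nESC and from 60.4% to 72.4% in EpiLSC with the longest transcript. The comparison of angiomotin with coactivator levels was added after the data were seen. No sample could be left out, and no paired analysis was possible because the table has no column per sample. The change needed for a call ran from 3.14-fold for Wwtr1 to 7.39-fold for Tead3 among the 10 genes. Read depth per sample is unknown, and its part in these limits was not tested.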
